A study of Homo sapiens with 12 samples.

Results

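Serpins are a family of proteins that share one fold, and most of them inhibit proteases. The 29 genes described here were chosen by name: the platform annotation gives them a symbol made of SERPIN, a clade letter from A to I and a number, and RefSeq does not class them as pseudogenes. They are 29 of the 19775 genes tested, and they fall into 9 clades. SERPINA2 has such a symbol but is a transcribed pseudogene in RefSeq, so it was left out (3.52 ± 0.10 with NICD and 3.51 ± 0.09 with vector on the log2 scale). Each gene was read by 1 probe set, a group of short probes summarised as 1 value, and of several the one with the highest mean over all arrays was used.

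An inhibitory serpin offers a protease an exposed reactive loop as bait. When the protease cuts the loop, the serpin snaps into a more stable form and traps the enzyme in a covalent complex, so that each inhibitor works once. Most clade A serpins are secreted plasma proteins, whereas clade B serpins lack a classical signal peptide and act mainly inside cells, several of them in skin and other stratified epithelia. A few members, such as SERPINB5 (maspin), SERPINF1 and SERPINH1, do not work as protease inhibitors.

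The cells were MCF-10A, a line of breast epithelium that forms no tumours, and RNA was taken 48 h after retroviral infection under standard growth conditions. The 4 groups of 3 biological replicates carried NICD (the free intracellular domain of Notch1, the active form of the receptor), Notch1 L1601P+∆P (a receptor with the L1601P change and the ∆P change), wild-type full-length Notch1, or vector alone. In T-cell leukemia, changes near L1601P destabilise the receptor's heterodimerisation domain, and deletions of the PEST region stabilise its intracellular domain. The sample descriptions add gfp to the name of NICD, and any part of a difference that comes from it was not analysed here. The sources used here do not name the promoter that drives the constructs. The labels do not say how separately the replicates were cultured, so each p-value rests on a spread among these samples that may be technical.

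The values are the authors' deposited log2 signals, with array medians of 5.64 to 5.70. A difference of 1 on this scale is a 2-fold change. Levels of different genes come from different probes and are not compared with each other. NOTCH1 itself was read by 2 probe sets. The dimmer one stood at 8.79 ± 0.04 with NICD, 8.74 ± 0.02 with Notch1 L1601P+∆P and 9.16 ± 0.04 with full-length Notch1, against 6.54 ± 0.20 with vector (SD, n = 3 each), and the brighter one differed from vector by 0.28, 0.06 and 0.08 in the same order. The first principal component of all genes held 69.7% of the variance and placed NICD at 38.4 to 41.5, Notch1 L1601P+∆P at -2.70 to -1.26, full-length Notch1 at -18.9 to -17.1 and vector at -21.1 to -19.1. The 6 basal mammary epithelial markers tested were all above log2 6 in every group (array means of the list 12.19 to 12.30 with NICD and 12.35 to 12.43 with vector). With NICD, KRT5 and KRT14 rose by 0.58 and 0.57, and ITGA6, EGFR and SFN fell by 1.07, 0.72 and 0.36. The 6 hepatocyte markers, checked because several serpins are liver proteins, had array means of 5.04 to 5.10 with NICD and 4.89 to 4.97 with vector, and 0 were called with any Notch1 form (limma; before adjustment, 1 was higher and 0 lower with NICD). Of 12 fibroblast, endothelial and blood cell markers, DCN, a matrix proteoglycan, rose with NICD (11.21 ± 0.05, against 10.85 ± 0.04 with vector, adjusted p = 0.000228). The array means of that list were 5.69 to 5.74 with NICD and 5.62 to 5.71 with vector, and 5 of the 12 were above log2 6 in each group. Besides DCN these were COL1A1 (7.85 with NICD and 7.70 with vector), PECAM1 (6.58 and 6.56), CD3E (6.12 and 6.10) and HBB (6.18 and 6.19), none of them called with NICD. LUM, CDH5, PTPRC and LYZ were below log2 4 in every group. The 3′ minus 5′ difference of the ACTB control probe sets, a sign of RNA quality, was 0.35 to 0.44 on the NICD arrays and 0.24 to 0.34 on the vector arrays, which did not overlap, and that of GAPDH was -0.05 to -0.01 with NICD and -0.02 to 0.00 with vector. What part the markers and RNA quality have in the results below was not tested. In these bulk samples fewer cells expressing a gene and less RNA per cell cannot be told apart.

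The 5 serpins that rose at least 2-fold with NICD were SERPINB4, SERPINA3, SERPINA12, SERPINB3 and SERPINF1. The 2 that fell, SERPINB13 and SERPINB8, did so by less than 2-fold (log2 differences of -0.56 and -0.42). Against vector, 10 of the 29 serpins rose with NICD and 2 fell, where a call is a Benjamini-Hochberg adjusted p under 0.05 in limma over all 19775 genes. That is 41.4% of the members, beside 27.6% of all genes called in that comparison, 9.54% higher and 18.1% lower. The balance of directions over all genes depends on the scaling, with 34.6% of called genes higher in the deposited values and 51.6% higher after cyclic loess, while the serpins then counted 11 higher and 2 lower. A change of at least 2-fold was called for 5 serpins (17.2%), beside 2.82% of all genes. SERPINB3 and SERPINB4, both among these 5, may share signal, as given below. The median log2 difference was 0.07 over the 29 serpins and -0.02 over all genes.

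With Notch1 L1601P+∆P, 6 serpins rose and 2 fell against vector (27.6% of the members, beside 5.12% of all genes, 2.16% higher and 2.95% lower), and 3 rose at least 2-fold (10.3%, beside 0.253%). These 3 again include SERPINB3 and SERPINB4, which may share signal. With the mean of all probe sets, 5 serpins were called, all higher, and the calls over all genes numbered 566 without Notch1 L1601P+∆P replicate 2, 628 without its replicate 1 and 592 without vector replicate 3, in place of 1012. With a filter on genes under log2 6, 8 serpins were higher and 2 lower, beside 1554 calls over all genes kept. A variance trend gave 8 and 2 as well, beside 1579 calls. After cyclic loess 58.4% of the called genes were higher in place of 42.3%. With full-length Notch1, 1 serpin rose and 0 fell in limma (unadjusted p under 0.05 for 5 higher and 2 lower), beside 0.0354% of all genes, which is 7 genes in all, 0.0303% higher and 0.00506% lower. A change of at least 2-fold was called for 0 of the serpins and for 0.0152% of all genes. The medians of the serpins were 0.09 with Notch1 L1601P+∆P and 0.07 with full-length Notch1, and those of all genes -0.01 and -0.01. These comparisons share their vector arrays, so their values are given side by side and not correlated.

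**Figure D1:**
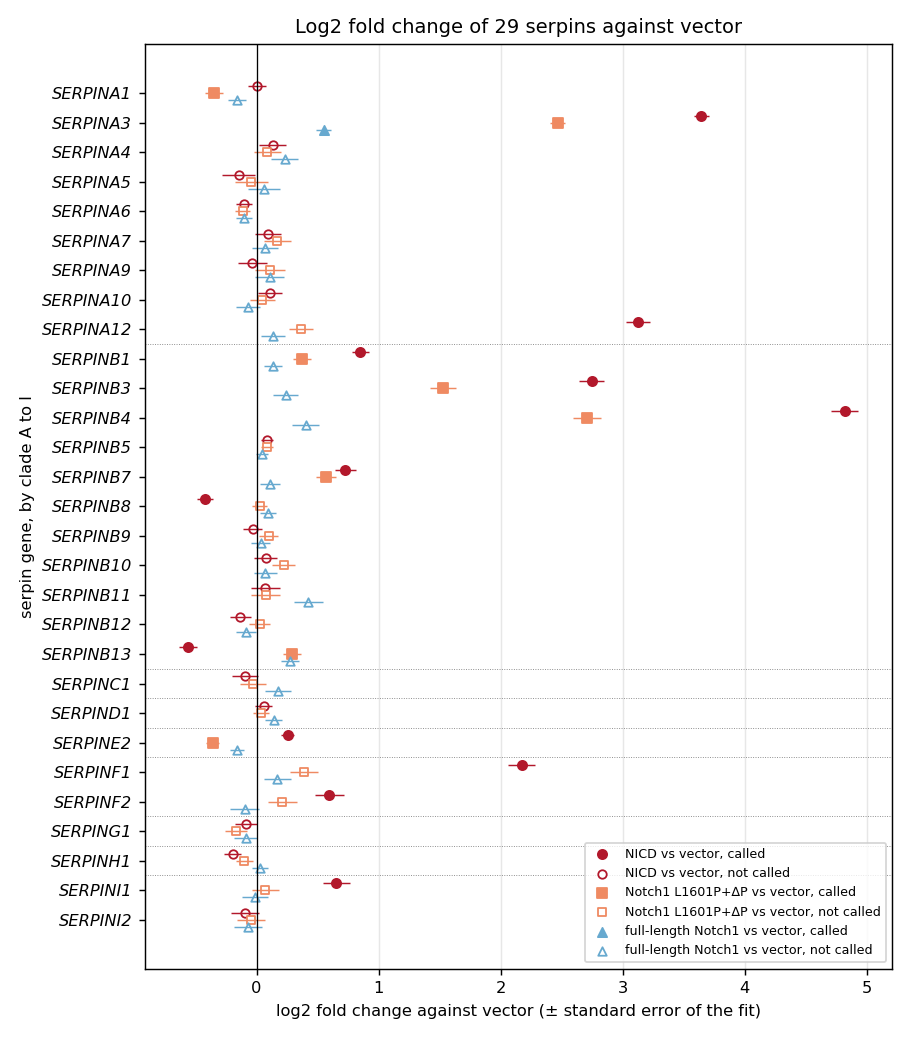
Log2 fold change of each of the 29 serpins against vector (x axis, log2 units, with the standard error of the fit) for NICD (circles), Notch1 L1601P+∆P (squares) and full-length Notch1 (triangles), grouped by clade; filled symbols were called. SERPINB4, SERPINA3, SERPINA12, SERPINB3 and SERPINF1 lie above 2 with NICD, and SERPINA3 has the one filled triangle.

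Between the Notch1 forms, NICD against Notch1 L1601P+∆P gave 10 serpins higher and 2 lower (41.4%, beside 19.8% of all genes, 8.73% higher and 11.1% lower), 5 of them at least 2-fold (beside 1.59%). NICD against full-length Notch1 gave 10 higher and 4 lower (48.3%, beside 27% of all genes, 10.1% higher and 17% lower), 5 of them at least 2-fold (beside 2.67%). Notch1 L1601P+∆P against full-length Notch1 gave 4 higher and 0 lower in limma (unadjusted p under 0.05 for 7 and 3), or 13.8% beside 3.72% of all genes (1.86% higher and 1.86% lower), 3 of them at least 2-fold (beside 0.223%). SERPINB3 and SERPINB4, which may share signal, are among the 2-fold calls in each comparison between the forms. After cyclic loess more of the called genes were higher than lower with NICD against Notch1 L1601P+∆P (2114 and 1865) and against full-length Notch1 (2634 and 2347), and with Notch1 L1601P+∆P against full-length Notch1 62.5% were higher in place of 50.1%. The last comparison gave 403 to 642 calls over all genes when 1 array was left out, in place of 735. The 3 arrays of one group lay entirely above or below those of the other for 15 serpins between NICD and vector, beside 39.1% of all genes, for 14 between Notch1 L1601P+∆P and vector, beside 28.5%, and for 7 between full-length Notch1 and vector, beside 11%. Between the forms this held for 12 serpins with NICD against Notch1 L1601P+∆P, beside 34.2% of all genes, for 15 with NICD against full-length Notch1, beside 39.5%, and for 16 with Notch1 L1601P+∆P against full-length Notch1, beside 27.2%. Of the 29 serpins, 15 were called in at least 1 of the 6 comparisons (51.7%, beside 34.3% of all genes) and 14 in none (48.3%, beside 65.7%). Against vector, 13 were called in at least 1 of 3 comparisons (44.8%, beside 28.2% of all genes). No group mean of 11 members exceeded log2 6, and 1 of these 11 (SERPINB11) was called. That count is partly set by the split, because a gene that passed log2 6 only where it rose, as SERPINA12 did with NICD, is not among the 11. The share called among all genes that dim is not given here.

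SERPINB4 had the largest fitted log2 difference of the family, against vector signals that were dim. It is a squamous cell carcinoma antigen that inhibits chymotrypsin-like serine proteases such as cathepsin G and mast cell chymase. Its log2 signals were 9.61, 9.79 and 9.71 with NICD, 7.51, 7.60 and 7.67 with Notch1 L1601P+∆P, 5.07, 5.41 and 5.38 with full-length Notch1, and 5.08, 4.64 and 4.94 with vector. The NICD arrays stood above the Notch1 L1601P+∆P arrays, and these above all others, while full-length Notch1 and vector overlapped. The rise against vector was 4.82 ± 0.11 with NICD on the deposited scale (adjusted p = 6.95e-12, limma) and 2.71 ± 0.11 with Notch1 L1601P+∆P (adjusted p = 2.01e-08). NICD was higher than Notch1 L1601P+∆P by 2.11 ± 0.11 (adjusted p = 3.66e-08). Signals of full-length Notch1 and vector were below log2 6, the level taken here as dim, so no fold is given.

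SERPINB3, its neighbour and near-identical copy, inhibits papain-like cysteine cathepsins. It gave 11.65, 11.83 and 11.72 with NICD, 10.58, 10.55 and 10.40 with Notch1 L1601P+∆P, 9.05, 9.28 and 9.34 with full-length Notch1, and 8.97, 9.19 and 8.79 with vector. Again NICD and Notch1 L1601P+∆P each stood apart and the other groups overlapped. The rise was 2.75 ± 0.10 with NICD (6.71-fold, adjusted p = 6.00e-10) and 1.53 ± 0.10 with Notch1 L1601P+∆P (2.88-fold, adjusted p = 2.03e-06). A second SERPINB3 probe set rose by 3.14 and 1.73 in the same comparisons, and a probe set annotated to both genes by 2.92 and 1.69. Because the genes are so alike, probes for one may also bind transcripts of the other, so how the signal divides between them is uncertain.

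The likeness extends to their promoters, shown because the signals annotated to both genes rose. Whether the promoters have a part in that rise was not tested. The 250 bases before each RefSeq start (GRCh38.p14) were aligned, at chr18:63644257-63644506 for SERPINB4 and chr18:63661894-63662143 for SERPINB3, both on the minus strand and written 5′ to 3′ with the bases that differ in capitals.
SERPINB4: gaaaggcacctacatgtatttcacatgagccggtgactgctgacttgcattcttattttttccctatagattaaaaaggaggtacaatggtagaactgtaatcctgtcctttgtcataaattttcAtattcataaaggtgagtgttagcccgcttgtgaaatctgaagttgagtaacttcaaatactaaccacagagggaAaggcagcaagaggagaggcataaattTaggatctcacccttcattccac
SERPINB3: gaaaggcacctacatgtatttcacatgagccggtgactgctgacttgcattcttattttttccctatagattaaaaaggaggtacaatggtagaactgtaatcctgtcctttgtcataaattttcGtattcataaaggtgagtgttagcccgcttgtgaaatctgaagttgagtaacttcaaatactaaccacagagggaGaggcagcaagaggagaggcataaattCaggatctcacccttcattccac
They were identical at 247 of 250 bases (98.8%). Counted from 1 at the 5′ end, with the SERPINB4 base first, the differences are A126G, A201G and T228C. Over the other 252 pairs among the 23 serpins with a promoter in the table, identity ran from 36.8% to 53.0%, with a median of 45.4%. Each gene was represented by the first promoter listed for it. Gaps were allowed and counted in the aligned length.

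SERPINA3, alpha-1-antichymotrypsin, is a secreted acute-phase inhibitor of cathepsin G and related enzymes, and it was the one serpin called in all 6 comparisons. Its signals were 14.50, 14.46 and 14.41 with NICD, 13.28, 13.31 and 13.24 with Notch1 L1601P+∆P, 11.41, 11.38 and 11.30 with full-length Notch1, and 10.93, 10.78 and 10.73 with vector. No 2 groups overlapped, and the order was NICD, Notch1 L1601P+∆P, full-length Notch1, vector. The rise against vector was 3.64 ± 0.06 with NICD (12.5-fold, adjusted p = 5.64e-13), 2.47 ± 0.06 with Notch1 L1601P+∆P (5.53-fold, adjusted p = 1.74e-10) and 0.55 ± 0.06 with full-length Notch1 (1.47-fold, adjusted p = 0.00465). When only the full-length Notch1 and vector arrays were fitted, the same difference had an adjusted p of 0.178. The forms also differed from each other, with NICD over Notch1 L1601P+∆P by 1.18 ± 0.06 (adjusted p = 2.62e-08) and Notch1 L1601P+∆P over full-length Notch1 by 1.92 ± 0.06 (adjusted p = 3.50e-09). The highest value of any probe set on these arrays was 15.01.

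SERPINA12, vaspin, is a secreted inhibitor of the skin protease KLK7 first described as an adipokine. It gave 7.25, 7.35 and 7.42 with NICD, 4.58, 4.45 and 4.71 with Notch1 L1601P+∆P, 4.42, 4.24 and 4.39 with full-length Notch1, and 4.0, 4.37 and 4.27 with vector. The NICD arrays stood far above the others. The rise was 3.13 ± 0.10 with NICD (adjusted p = 1.30e-10), while with Notch1 L1601P+∆P the difference of 0.37 ± 0.10 was not called (adjusted p = 0.0547), although its arrays did not overlap with vector. NICD exceeded Notch1 L1601P+∆P by 2.76 ± 0.10 (adjusted p = 9.54e-10). Outside NICD its signals were dim, below log2 6, so no fold is given.

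The promoters of SERPINA3 and SERPINA12 are shown because RBPJ, the DNA-binding partner of NICD, recognises a core of TGGGAA. The 250 bases before the start are at chr14:94612141-94612390 (plus strand) and, for the one of the 3 listed SERPINA12 starts with the most matches, at chr14:94509470-94509719 (minus strand), in RefSeq GRCh38.p14. TGGGAA on either strand is in capitals.
SERPINA3: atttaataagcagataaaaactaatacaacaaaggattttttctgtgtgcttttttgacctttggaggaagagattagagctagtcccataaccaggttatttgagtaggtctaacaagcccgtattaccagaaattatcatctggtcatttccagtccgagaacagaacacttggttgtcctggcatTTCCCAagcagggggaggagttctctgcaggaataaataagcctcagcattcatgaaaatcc
SERPINA12: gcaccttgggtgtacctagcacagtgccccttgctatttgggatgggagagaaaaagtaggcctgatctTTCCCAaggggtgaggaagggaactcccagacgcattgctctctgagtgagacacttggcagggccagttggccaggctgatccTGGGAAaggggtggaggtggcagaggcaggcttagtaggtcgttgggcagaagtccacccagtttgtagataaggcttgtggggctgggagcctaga
SERPINA3 had 1 match, at bases -62 to -57 from the start, and this SERPINA12 window had 2. TGGGAA, searched on both strands, was in 11 of 33 promoters of the members (33.3%) and in 20.8% of all 35116 windows of that length, some of which overlap. Neither SERPINB4 nor SERPINB3 had a match. Of the 8 members with one, SERPINA3, SERPINA12 and SERPINB7 rose with NICD against vector and SERPINB13 fell. The others with a match, SERPINA4, SERPINA10, SERPINB9 and SERPINB12, were called in none of the 6 comparisons. The AP-1 motif TGANTCA and the STAT motif TTCNNNGAA were each in 7 of the 33 (21.2%) and in 6.57% of all windows, and TATAAA in 7 (21.2%) and in 10.7%, while the NF-kB motif was in 0 of the 33 and in 0.527%, all searched on both strands. The STAT and NF-kB motifs can overlap the TGGGAA core. A match is a description of the letters, and no match says only that these letters are not in this window.

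SERPINF1, pigment epithelium-derived factor, is a secreted serpin without inhibitory activity that restrains blood vessel growth. It gave 8.64, 8.85 and 8.54 with NICD, 6.91, 6.85 and 6.93 with Notch1 L1601P+∆P, 6.53, 6.84 and 6.66 with full-length Notch1, and 6.26, 6.61 and 6.65 with vector. The NICD arrays were the high ones, by 2.17 ± 0.11 over vector (4.50-fold, adjusted p = 1.17e-08) and by 1.78 ± 0.11 over Notch1 L1601P+∆P (adjusted p = 1.52e-07). The difference of 0.39 ± 0.11 between Notch1 L1601P+∆P and vector was not called (adjusted p = 0.0677), although the arrays of these groups did not overlap. SERPINF2, alpha-2-antiplasmin, the main inhibitor of plasmin, averaged 6.91 ± 0.27 with NICD and 6.31 ± 0.04 with vector, a rise of 0.60 ± 0.12 (adjusted p = 0.00192). Its arrays overlapped between NICD and Notch1 L1601P+∆P, a difference of 0.39 ± 0.12 (adjusted p = 0.036) that was lost under 5 of 13 alternatives, among them leaving out NICD replicate 1 or 2 or Notch1 L1601P+∆P replicate 2 or 3 (highest adjusted p = 0.14).

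**Figure D2:**
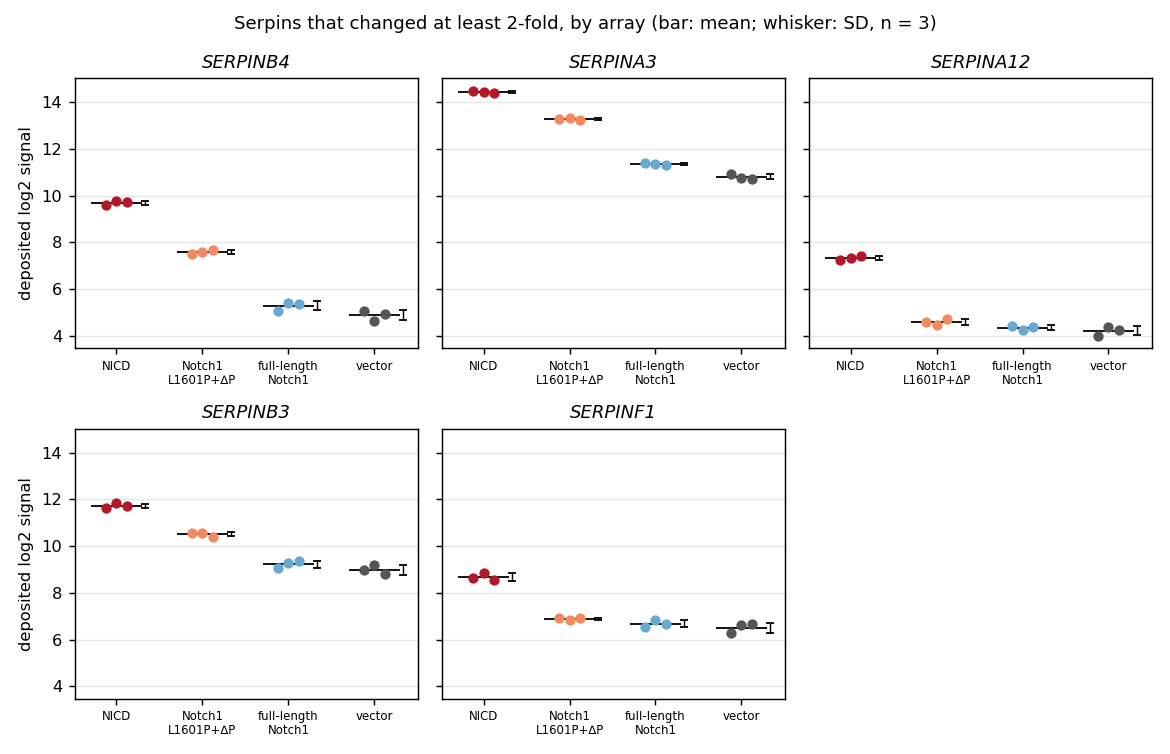
Deposited log2 signal (y axis) of the 5 serpins that changed at least 2-fold, with 1 point per array, a bar at the group mean and a whisker of 1 SD (n = 3). SERPINB4, SERPINB3 and SERPINA3 are highest with NICD and next with Notch1 L1601P+∆P. The means of SERPINA12 and SERPINF1 are within 0.39 of vector in the groups other than NICD. For both of these genes the Notch1 L1601P+∆P arrays still lie above all vector arrays.

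Among the other clade B genes, SERPINB1, an inhibitor of neutrophil elastase and cathepsin G, averaged 10.32 ± 0.13 with NICD and 9.84 ± 0.05 with Notch1 L1601P+∆P, against 9.47 ± 0.06 with vector. It rose by 0.85 ± 0.07 with NICD (adjusted p = 1.36e-06) and by 0.37 ± 0.07 with Notch1 L1601P+∆P (adjusted p = 0.00956). The second call was lost with the most variable of its 4 probe sets (0.20, adjusted p = 0.183). In the fit of single probe sets, 3 of the 4 were called higher with NICD. With Notch1 L1601P+∆P only 1 of the 4 was, the one used here, and the differences ran from 0.07 to 0.37. SERPINB7, megsin, whose loss in humans causes a palmoplantar keratoderma, rose by 0.73 ± 0.08 with NICD (adjusted p = 2.23e-05) and by 0.57 ± 0.08 with Notch1 L1601P+∆P (adjusted p = 0.00137). Those forms differed by 0.16 ± 0.08 for SERPINB7, which was not called (adjusted p = 0.222).

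SERPINB13, hurpin, an inhibitor of cathepsins L and K in keratinocytes, went in opposite directions with NICD and Notch1 L1601P+∆P. It averaged 8.64 ± 0.07 with NICD, 9.49 ± 0.04 with Notch1 L1601P+∆P and 9.48 ± 0.13 with full-length Notch1, against 9.20 ± 0.10 with vector. NICD arrays were the low ones, by -0.56 ± 0.07 against vector (adjusted p = 7.34e-05) and by -0.85 ± 0.07 against Notch1 L1601P+∆P (adjusted p = 3.01e-06). The rise of 0.29 ± 0.07 with Notch1 L1601P+∆P (adjusted p = 0.0412) was lost under 8 of 13 alternatives, among them leaving out vector replicate 1 or 3 or any Notch1 L1601P+∆P replicate, with a highest adjusted p of 0.145. Of its 6 probe sets, 4 were lower with NICD than with vector over all probe sets tested, and the other 2 were not called, while with Notch1 L1601P+∆P 0 of the 6 were called against vector in limma (lowest adjusted p over probe sets = 0.0799).

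SERPINB8, which inhibits furin, fell with NICD (8.40 ± 0.09, against 8.82 ± 0.07 with vector) by 0.42 ± 0.06 (adjusted p = 0.000249). It differed by 0.03 ± 0.06 with Notch1 L1601P+∆P, which was not called. With the mean of its 2 probe sets the difference with NICD was -0.14 (adjusted p = 0.166). SERPINB5, maspin, abundant in mammary epithelium, averaged 13.14 ± 0.01 with NICD, 13.14 ± 0.04 with Notch1 L1601P+∆P, 13.10 ± 0.04 with full-length Notch1 and 13.06 ± 0.03 with vector. It was called in none of the 6 comparisons, and its difference with NICD was 0.08 ± 0.05. Its dimmer probe set was lower with NICD by -0.36 (adjusted p over probe sets = 0.0458).

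The remaining clade B members were dim. SERPINB9, the inhibitor of granzyme B, averaged 4.90 ± 0.05 with NICD and 4.93 ± 0.08 with vector and was not called. SERPINB10 and SERPINB12 had group means between 3.97 and 4.45 and were not called either. SERPINB11 was lower with NICD than with full-length Notch1 by -0.35 ± 0.12 (adjusted p = 0.0443) at levels of 3.35 ± 0.15 and 3.70 ± 0.04, and that call was lost under 6 of 12 alternatives, among them the replicate block and leaving out NICD replicate 1 or 2 or any full-length Notch1 replicate (highest adjusted p = 0.149).

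**Figure D3:**
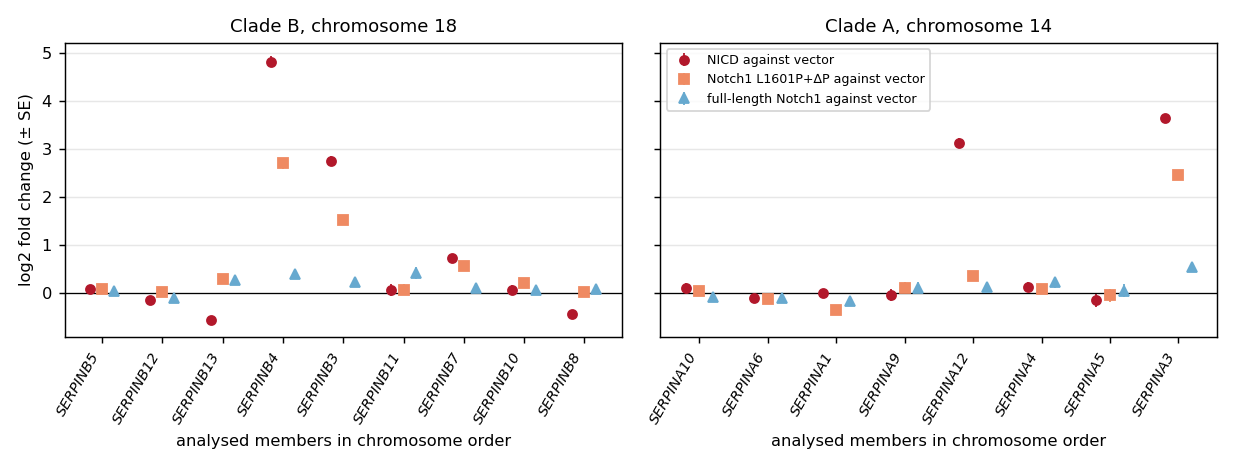
Log2 fold change against vector (y axis, ± SE) of the analysed clade B members on chromosome 18 (left) and clade A members on chromosome 14 (right), in the order of RefSeq GRCh38.p14, for NICD, Notch1 L1601P+∆P and full-length Notch1. SERPINB4 (4.82 with NICD) lies between SERPINB13, which fell with NICD (-0.56), and SERPINB3 (2.75).

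Most members of clades A and B lie in clusters of neighbouring genes. Of the 9 analysed members on chromosome 18, 3 rose and 2 fell with NICD (55.6%, beside 27.6% of all genes). With Notch1 L1601P+∆P, 4 rose and 0 fell in limma (unadjusted p under 0.05 for 5 and 0), or 44.4% beside 5.12%. The SERPINB13 rise among these was lost under 8 of 13 alternatives. SERPINB3 and SERPINB4, counted with both forms, may share signal, as given above. SERPINB13, lower with NICD, precedes SERPINB4 in the chromosome order, and SERPINB11, not called against vector, follows SERPINB3. Of the 8 members on chromosome 14, SERPINA3 and SERPINA12 rose with NICD (25%, beside 27.6% of all genes) and 6 were not called, among them SERPINA4 and SERPINA5, which lie between them.

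SERPINA1, alpha-1-antitrypsin, the main plasma inhibitor of neutrophil elastase, averaged 7.99 ± 0.12 with NICD, 7.64 ± 0.12 with Notch1 L1601P+∆P, 7.83 ± 0.06 with full-length Notch1 and 7.99 ± 0.04 with vector. It fell with Notch1 L1601P+∆P by 0.35 ± 0.07 (adjusted p = 0.0149), a call lost under 5 of 13 alternatives, including leaving out vector replicate 1 or 3 or Notch1 L1601P+∆P replicate 1 or 2 (highest adjusted p = 0.143). Its difference between NICD and vector was 0.00 ± 0.07 and was not called (adjusted p = 0.984). NICD exceeded Notch1 L1601P+∆P by 0.35 ± 0.07 (adjusted p = 0.00385), a call lost with the mean of its 4 probe sets or with the most variable one (highest adjusted p = 0.239). The other clade A genes, among them kallistatin (SERPINA4), the protein C inhibitor (SERPINA5), the hormone carriers SERPINA6 and SERPINA7, SERPINA9 and SERPINA10, had group means between 4.05 and 6.84 and were called in none of the 6 comparisons.

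SERPINE2, protease nexin-1, a cell-surface inhibitor of thrombin and plasminogen activators, averaged 8.87 ± 0.03 with NICD, 8.25 ± 0.01 with Notch1 L1601P+∆P, 8.45 ± 0.08 with full-length Notch1 and 8.61 ± 0.07 with vector. It rose with NICD by 0.25 ± 0.06 (adjusted p = 0.00407) and fell with Notch1 L1601P+∆P by 0.36 ± 0.06 (adjusted p = 0.00237). The forms differed by 0.61 ± 0.06 (adjusted p = 5.03e-06). Its second probe set, with group means of 3.78 to 3.94, was not called, and with the mean of both neither difference from vector was called (adjusted p = 0.0991 and 0.4). SERPINI1, neuroserpin, an inhibitor of tissue plasminogen activator known from neurons, averaged 7.28 ± 0.06 with NICD and 6.62 ± 0.15 with vector and rose by 0.65 ± 0.11 (adjusted p = 0.000565).

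**Figure D4:**
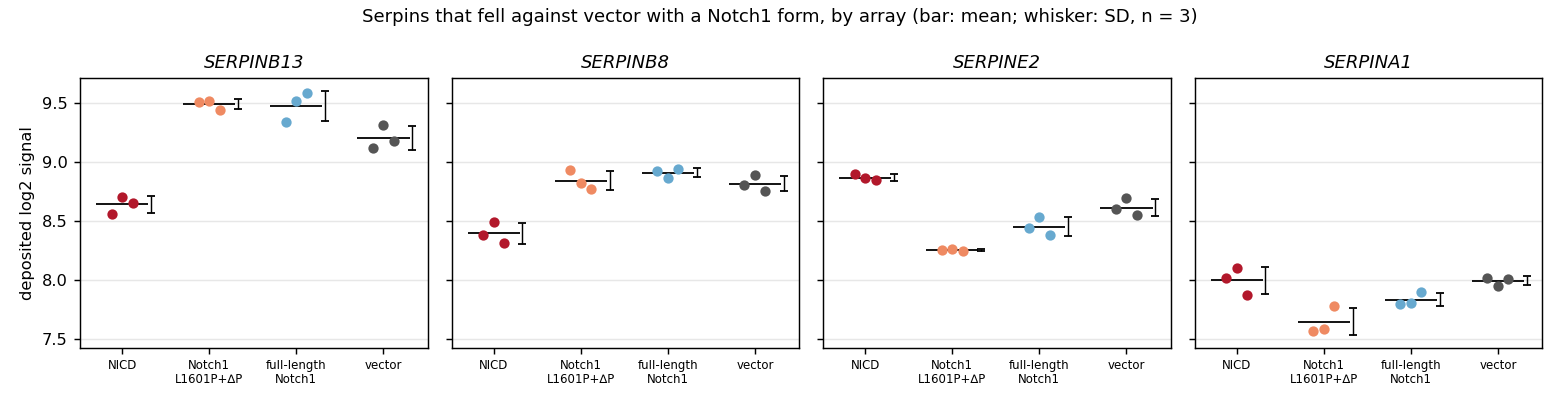
Deposited log2 signal (y axis) by array of the 4 serpins that fell against vector with a Notch1 form, with bars at the mean and whiskers of 1 SD (n = 3). SERPINB13 and SERPINB8 are lowest with NICD (means 8.64 and 8.40), whereas SERPINE2 and SERPINA1 are lowest with Notch1 L1601P+∆P (8.25 and 7.64).

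Antithrombin (SERPINC1), heparin cofactor II (SERPIND1) and SERPINI2 had group means between 3.27 and 4.43 and were not called. SERPING1, the C1 inhibitor, which blocks the complement proteases C1r and C1s, stood at 5.33 ± 0.20 with NICD and 5.41 ± 0.12 with vector and was not called (adjusted p = 0.563). Its signals were dim, below log2 6, in every group. SERPINH1, the collagen chaperone HSP47, averaged 9.89 ± 0.13 with NICD, 10.12 ± 0.08 with full-length Notch1 and 10.09 ± 0.05 with vector. It was lower with NICD than with full-length Notch1 by -0.22 ± 0.07 (adjusted p = 0.0287), a call lost under 7 of 13 alternatives, including cyclic loess and the omission of replicate 1 or 3 of NICD or full-length Notch1 (highest adjusted p = 0.168), and its difference from vector was not called (adjusted p = 0.0511).

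Of 30 proteases that serpins act on, 6 rose and 4 fell with NICD (33.3%, beside 27.6% of all genes), and 3 rose and 1 fell with Notch1 L1601P+∆P (13.3%, beside 5.12%). With full-length Notch1, 0 were called in limma (unadjusted p under 0.05 for 2 higher and 1 lower). Their medians against vector were 0.02 with NICD and 0.03 with Notch1 L1601P+∆P, beside -0.02 and -0.01 over all genes. C1S, a complement protease, gave 9.45, 9.47 and 9.42 with NICD, 7.75, 7.69 and 7.60 with Notch1 L1601P+∆P, 6.87, 7.01 and 6.87 with full-length Notch1, and 7.0, 6.96 and 6.81 with vector. It rose by 2.52 ± 0.07 with NICD (adjusted p = 1.94e-11) and by 0.75 ± 0.07 with Notch1 L1601P+∆P (adjusted p = 2.09e-05). C1R, its partner, rose by 2.19 ± 0.10 and 0.70 ± 0.10 (adjusted p = 2.59e-09 and 0.000888). CTSV, a cysteine cathepsin of epithelia, rose by 2.19 ± 0.08 and 0.50 ± 0.08 (adjusted p = 2.62e-10 and 0.00187).

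CTSB, another cysteine cathepsin, rose by 0.53 ± 0.05 with NICD (adjusted p = 7.31e-06). CTSL and CTSK, targets of SERPINB3 and SERPINB13, differed by 0.06 ± 0.07 and -0.02 ± 0.08 with NICD and were not called. CTSG, a target of SERPINA3, SERPINB1 and SERPINB4, averaged 6.67 ± 0.09 with NICD and 6.61 ± 0.16 with vector and was not called. PLAT, the tissue plasminogen activator, fell by 0.43 ± 0.07 with NICD and by 0.28 ± 0.07 with Notch1 L1601P+∆P (adjusted p = 0.000447 and 0.0357), and the membrane proteases PRSS8 and ST14 fell by 0.54 ± 0.09 and 0.35 ± 0.08 with NICD (adjusted p = 0.000758 and 0.00481). F12, coagulation factor XII, fell by 0.30 ± 0.07 (adjusted p = 0.00915).

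**Figure D5:**
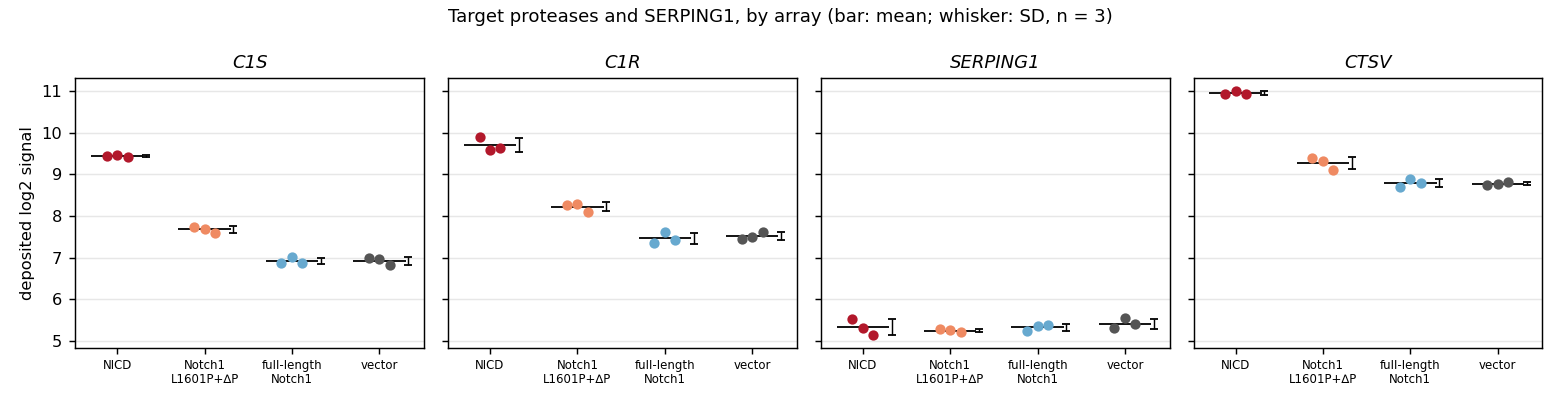
Deposited log2 signal (y axis) by array of the complement proteases C1S and C1R, their inhibitor SERPING1, and the cathepsin CTSV, with bars at the mean and whiskers of 1 SD (n = 3). C1S, C1R and CTSV are highest with NICD, while the SERPING1 groups overlap (means 5.33 with NICD and 5.41 with vector). SERPING1 is dim, below log2 6, in every group.

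Of 8 receptors and cofactors of serpins tested (2 of the 10 listed were not analysed here), 1 rose and 2 fell with NICD (37.5%, beside 27.6% of all genes). KDELR3, one of the receptors that return proteins such as SERPINH1 to the endoplasmic reticulum, rose by 0.40 ± 0.08 (adjusted p = 0.00229). LRP1, the endocytic receptor that clears serpin-protease complexes, fell by 0.37 ± 0.08 (adjusted p = 0.00404), and LRP8 fell by 0.35 ± 0.05 (adjusted p = 0.000216). With Notch1 L1601P+∆P 0 of the 8 were called in limma (unadjusted p under 0.05 for 0 higher and 1 lower). Of 13 enzymes and chaperones that fold collagen alongside SERPINH1, 2 rose and 6 fell with NICD (61.5%, beside 27.6% of all genes, 18.1% lower), with a median of -0.08 beside -0.02 over all genes. FKBP10, a prolyl isomerase, fell by 0.99 ± 0.25 (adjusted p = 0.0106) with an SD of 0.57 over the NICD arrays and 0.47 over the vector arrays. Its lowest NICD array (5.97) and highest vector array (8.14) were both replicate 3. PLOD2, a collagen lysyl hydroxylase, fell by 0.55 ± 0.06 (adjusted p = 2.74e-05), and P4HA2, a prolyl hydroxylase subunit, rose by 0.47 ± 0.06 (adjusted p = 5.04e-05). With Notch1 L1601P+∆P, 1 of the 13 rose (P3H2, by 0.25 ± 0.05) and 1 fell (PLOD2, by 0.27 ± 0.06), or 15.4% beside 5.12% of all genes. The differences for SERPINH1 itself are given above.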

How the data were processed

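Expression was measured on 12 Affymetrix arrays of 54675 probe sets, 3 for each of 4 groups. The deposited log2 signals were made by the authors with RMA, and limma was also used, per the submitters' processing notes, with versions not given in the sources used here. RMA includes quantile normalization, which hides any common shift of the genes. No scanner file was used here. Precision is limited by the number of arrays.

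Symbols came from the platform annotation, in which 41091 probe sets had 1 symbol, 1801 several and 11721 none, with 62 controls. A RefSeq gene number was found for 41037 of the single-symbol probe sets and not for 54, and 0 symbols differed. The probe set with the highest mean was kept for each of 19775 genes. Group means of all 12 arrays were fitted in limma 3.58.1 (R 4.3.3; lmFit, contrasts.fit, eBayes; 8 residual and 4.09 prior degrees of freedom), with 6 two-sided comparisons, each adjusted by Benjamini-Hochberg over all genes. Probe sets were also fitted one by one, adjusted over all probe sets. The code was tested on simulated data. Means carry the SD over 3 arrays, differences the fitted standard error.

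Values on every array are given for members called with a log2 change of at least 1 in a comparison and for C1S, whose values were chosen after they were seen, and from each list up to 4 called members per direction could be named. CTSL, CTSK and CTSG, which were not called, the basal markers and DCN were named after their values were seen. The members and lists were chosen with earlier results of these data known. Promoters were compared with Biopython 1.88. Replicate numbers are shared between groups, but deviations of same-numbered arrays correlated between -0.11 and 0.16, with 1 of 18 pairs over 0.1, so the numbers were not taken as pairs. The alternatives were the mean of all probe sets, the most variable probe set, a filter on genes under log2 6, cyclic loess, a variance trend, fits of only the groups compared, the replicate block and leaving out each array.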

Additional observations from a re-analysis of the deposited data

Results flagged for a closer look

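Both serpins below were called in opposite directions against vector with different Notch1 forms, and the forms also differed from each other. SERPINB13 was lower with NICD than with Notch1 L1601P+∆P by -0.85 ± 0.07 (limma adjusted p = 3.01e-06), and all 3 NICD arrays were below all 3 Notch1 L1601P+∆P arrays. SERPINE2 was higher with NICD than with Notch1 L1601P+∆P by 0.61 ± 0.06 (limma adjusted p = 5.03e-06), again with no overlap of arrays. The SERPINB13 rise with Notch1 L1601P+∆P against vector (0.29, adjusted p = 0.0412) was lost under 8 of 13 alternatives, among them leaving out any Notch1 L1601P+∆P replicate or vector replicate 1 or 3, and 0 of its 6 probe sets were called in the limma fit of single probe sets (lowest adjusted p = 0.0799). With the mean of its 2 probe sets, SERPINE2 was called against vector neither with NICD (adjusted p = 0.0991) nor with Notch1 L1601P+∆P (adjusted p = 0.4).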

How the results depend on the processing

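The numbers of serpins called stayed within 1.5 times the reported ones under every alternative run, with exceptions for Notch1 L1601P+∆P and full-length Notch1 against vector. With the mean of all probe sets, 5 serpins were called with Notch1 L1601P+∆P in place of 8. With only the 2 groups fitted, 0 were called with full-length Notch1 by limma in place of 1 (in the fit of all arrays the unadjusted p was under 0.05 for 5 higher and 2 lower). Leaving out 1 array gave 12 to 13 serpins for NICD and 6 to 9 for Notch1 L1601P+∆P against vector. Of the alternative values of the 5 serpins that changed at least 2-fold, 285 kept their call and 1 lost it, SERPINA3 with full-length Notch1 (adjusted p = 0.178), and 0 changed sign.

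Over all genes, Notch1 L1601P+∆P against vector gave 1554 calls without dim genes and 1579 with a variance trend, where 1012 are reported, and 566 to 957 when 1 array was left out, with 566 without Notch1 L1601P+∆P replicate 2, 628 without its replicate 1 and 592 without vector replicate 3. Notch1 L1601P+∆P against full-length Notch1 gave 1183, 1253 and 403 to 642 in the same order, where 735 are reported; the counts were 403 and 462 without Notch1 L1601P+∆P replicate 2 and 1, and 409 and 474 without full-length Notch1 replicate 3 and 2. Full-length Notch1 against vector gave 17 with a variance trend, 3 with only those groups and 4 to 5 without 1 array, where 7 are reported, with 4 without vector replicate 1 or full-length Notch1 replicate 2 or 3. After cyclic loess the share of called genes that were higher was 58.4% in place of 42.3% for Notch1 L1601P+∆P against vector, 52.9% in place of 37.3% for NICD against full-length Notch1 and 62.5% in place of 50.1% for Notch1 L1601P+∆P against full-length Notch1.

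With the replicate block, serpin calls numbered 12 for NICD, 8 for Notch1 L1601P+∆P and 1 for full-length Notch1 against vector, as reported, and 12 in place of 14 for NICD against full-length Notch1, with the SERPINB11 and SERPINH1 calls lost. Full-length Notch1 against vector then gave 4 genes in all. Of the 12 arrays, 3 correlated best with their own replicate number. The cause of these changes was not tested.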
